A study of Homo sapiens with 6 samples.

Results

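The ZNF genes of chromosome 19 are the largest block of zinc finger genes in the human genome. They were taken here as the protein-coding genes whose symbol is ZNF followed by a number and at most 1 letter and whose entry in the deposited gene table lies on chromosome 19. There were 246 such members among the 58299 genes of the table. Of these, 220 had enough reads to be tested and 26 did not.

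Most of these genes encode proteins with a KRAB domain at the front and a row of C2H2 zinc fingers behind it. The fingers read DNA, and the KRAB domain recruits the scaffold protein TRIM28 (KAP1), which brings in the histone methyltransferase SETDB1, HP1 proteins and the NuRD deacetylase complex. The family is best known for silencing retrotransposons. Its genes arose by repeated tandem duplication, so that neighbours in a cluster are often close copies of each other.

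RNA was measured in AC16 cells, an established human line made by fusing adult ventricular heart cells with transformed fibroblasts. The treated group, named CDDO_DOX in the labels, had 3 libraries from cells given 100 nM CDDO-Me for 24 h and then 100 nM doxorubicin for 48 h. The Control group had 3 libraries from cells kept with 0.1% DMSO for 72 h. CDDO-Me (bardoxolone methyl) releases the transcription factor NRF2 from its inhibitor KEAP1, and doxorubicin is an anthracycline that poisons topoisomerase II. The comparison is of both drugs in sequence against the vehicle, so that no change can be assigned to either drug. The labels give no genotype other than that of the line, and do not say whether replicates were separate cultures or whether CDDO-Me was removed before doxorubicin was added. The p-values therefore reflect only how far these libraries differ from each other, and that difference may be technical.

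The libraries held 19732013 to 20193957 counts in treated cells and 17150259 to 19387496 in Control cells, from poly(A) RNA counted without strand. All 8 genes of a list of NRF2 and p53 targets were called higher in treated cells, beside 32.3% of all tested genes. The list was chosen with earlier results of these data known, so this is a description. In SRXN1, a gene of that list, 85.0% of exon bases lie in exons of other genes. Of 14 cardiomyocyte markers, 2 passed the filter on low counts, and TNNI3, the heart form of troponin I, was at 0 in all libraries. Their summed level was 13.7 to 19.5 CPM in treated libraries and 16.8 to 21.3 CPM in Control libraries, where CPM is the count scaled to library size. Most of that sum was GATA4, a cardiac transcription factor, at 14.3 CPM in treated and 17.9 CPM in Control cells; GATA4 (log2 change -0.33) and NPPB (-3.85), which encodes a natriuretic peptide, were called lower. NPPB had 3, 0 and 0 reads in treated libraries and passed the filter only through the Control libraries. ACTN2, RYR2 and PLN had 4 to 16 reads in each treated library and 0 in every Control library. Of 14 fibroblast markers, 13 were called lower, with summed levels of 13428 to 14311 CPM in treated libraries and 25292 to 27816 CPM in Control libraries. The part of these marker shifts in the results below was not tested. In RNA from a whole culture, fewer cells of a kind and less RNA per cell cannot be told apart.

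Chromosome 19 ZNF genes were mostly higher in treated cells. By edgeR's quasi-likelihood test with a Benjamini-Hochberg adjusted p below 0.05, 104 members were called higher, 13 were called lower and 103 were not called. Of all 15575 tested genes, 63.5% were called, 32.3% higher and 31.2% lower, while for the members the shares were 47.3% and 5.91%. The median log2 change of the 220 tested members was 0.35, with the middle part (25th to 75th percentile) between 0.06 and 0.64, beside 0.02 over all tested genes. The fitted change was positive in 175 members. The changes were modest: 16 members were called at least 2-fold higher and 0 at least 2-fold lower, against 10.9% and 4.62% of all tested genes. Groups did not overlap in 111 members that were higher in every treated library and in 17 that were lower. Over all tested genes, 66.7% did not overlap, 34.1% being higher and 32.6% lower. For the counts that follow, every fold and log2 change is CDDO_DOX over Control.

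**Figure D1:**
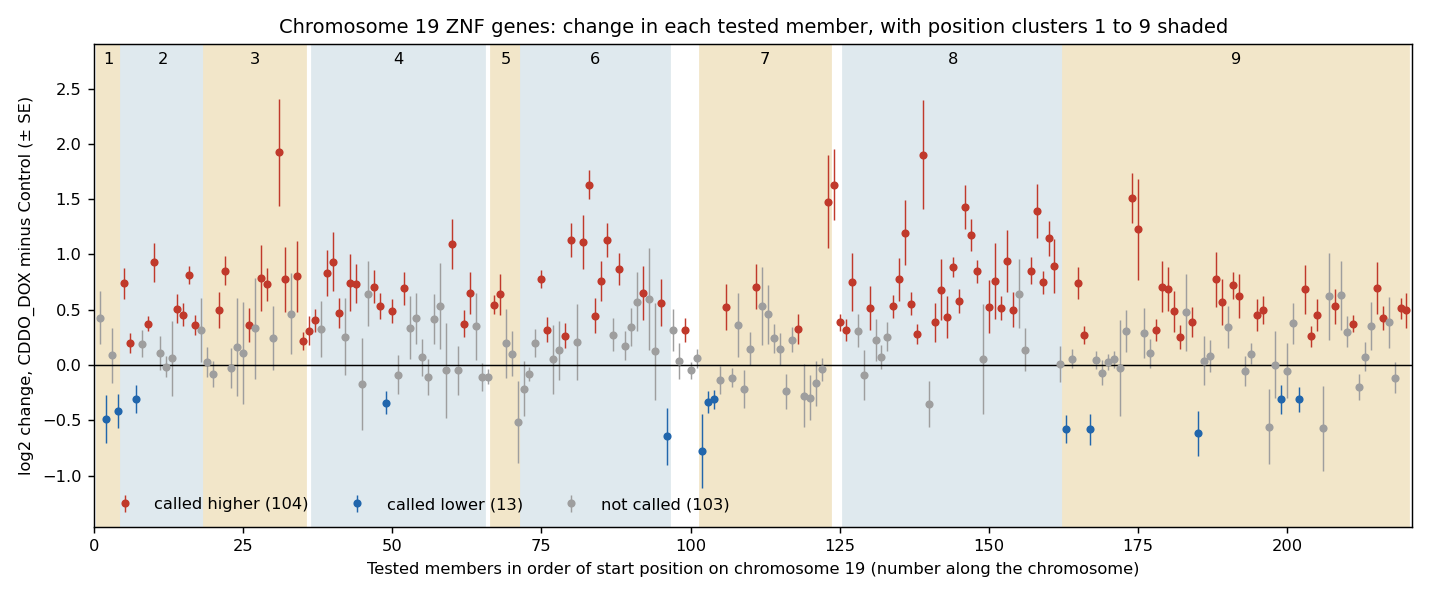
Log2 change (CDDO_DOX minus Control, with standard error) of the 220 tested members, in order of their start on chromosome 19; red points were called higher (104), blue lower (13), grey not called (103). Shaded bands mark position clusters 1 to 9; most points lie above 0, and cluster 8 has no blue point.

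Summed over the 246 members, their reads made up 0.215%, 0.206% and 0.212% of all counts in treated libraries, and 0.153%, 0.163% and 0.163% in Control libraries. The treated and Control libraries did not overlap in this share. It is a share of raw totals, without the library scaling used for CPM. With that scaling the members summed to 2054, 2003 and 2023 CPM in treated libraries, and 1613, 1695 and 1711 CPM in Control libraries. The median level of the tested members was 5.95, 5.49 and 5.66 CPM in treated libraries, and 4.22, 4.41 and 4.76 CPM in Control libraries. These are low levels: over both groups the median member was at 5.38 CPM and 1.01 RPKM (CPM per kilobase of exon), beside 21.9 CPM and 4.40 RPKM for all tested genes.

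Because the members were low and a low level limits what a test can call, they were also set beside genes of a like level. Among the 5707 tested genes with a mean of 1 to 20 CPM, 33.5% were called higher and 20.5% lower, and their median log2 change was 0.13. Among the 181 members in that range, 48.6% were called higher and 6.63% lower, with a median of 0.38. Within the members, the higher-expressed 110 held 61 called higher and 9 lower, and the lower-expressed 110 held 43 and 4. The filter on low counts asked for about 0.511 CPM in 3 libraries. It was met in all 6 libraries by 205 members. Another 10 met it in all 3 treated libraries but not in every Control library, of which 4 were called higher, and 0 members showed the opposite. Of all 15575 tested genes, 13570 met it in all 6 libraries. A further 1279 met it in all treated but not all Control libraries, of which 883 were called higher. The opposite held for 320 genes, of which 152 were called lower.

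ZNF genes elsewhere in the genome moved in the same direction by less. Of 263 protein-coding ZNF genes on other chromosomes, 230 were tested, 93 were called higher (40.4%) and 31 lower (13.5%), and the median log2 change was 0.16. Their summed reads were 0.541%, 0.535% and 0.544% of all counts in treated libraries, and 0.444%, 0.450% and 0.455% in Control libraries. The other protein-coding genes of chromosome 19 did not share the shift. Of 713 tested, 228 were called higher and 260 lower, with a median of -0.03. The differences between these sets were described and not tested.

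The largest increase among members above 1 CPM was shared by ZNF114 and ZNF829. ZNF829, a KRAB protein gene of position cluster 6 (chr19:36888124-36916291, minus strand), had 16.0, 13.3 and 16.1 CPM in treated libraries, against 5.80, 4.47 and 4.39 CPM in Control libraries. Every treated library lay above every Control library. Its log2 change was 1.63 (SE 0.13, edgeR adjusted p = 5.51e-17). No 50-base stretch of its transcript occurs in a transcript of another gene. The RefSeq promoter of ZNF829 (GRCh38.p14, chr19:36916242-36916541, minus strand) is shown because it also takes in the start of ZNF568, which lies 38 bases away on the other strand, so that most of the window lies inside that gene. Capitals mark a match to the antioxidant response element core TGACNNNGC, the motif that NRF2 dimers bind, and to the ETS motif CCGGAAG, on either strand:

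ZNF829: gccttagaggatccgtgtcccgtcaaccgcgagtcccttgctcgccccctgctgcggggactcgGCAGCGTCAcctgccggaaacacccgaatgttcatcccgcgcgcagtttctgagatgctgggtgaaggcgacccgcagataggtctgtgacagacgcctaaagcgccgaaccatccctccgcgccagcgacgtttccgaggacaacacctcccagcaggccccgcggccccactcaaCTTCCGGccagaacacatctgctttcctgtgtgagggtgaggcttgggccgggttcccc

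ZNF568, the partner across that promoter, is the human counterpart of mouse Zfp568, which represses a placental transcript of Igf2. It had 8.67, 6.74 and 6.04 CPM in treated libraries, against 4.59, 5.14 and 5.96 CPM in Control libraries. The groups did not overlap, but the lowest treated and the highest Control library nearly met. The log2 change was 0.45 (SE 0.16, edgeR adjusted p = 0.011), and the call was lost without CDDO_DOX replicate 1 (0.29) or without Control replicate 1 (0.37).

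There were 4 pairs of members whose start sites lay within 1000 bases of each other on opposite strands, all in cluster 6. In 3 of them a single gene was called and its partner was not. ZNF345 had 3.52, 3.30 and 3.26 CPM in treated libraries, against 1.38, 1.81 and 1.46 CPM in Control libraries, a log2 change of 1.11 (SE 0.25, edgeR adjusted p = 7.60e-05). ZNF790, which starts 426 bases away, had 1.78, 0.984 and 1.13 CPM in treated libraries, against 1.26, 1.09 and 1.03 CPM in Control libraries, and was not called (0.21, SE 0.34). ZNF383 was called higher (0.87), while ZNF585B, 227 bases away, was not (0.27, SE 0.15). ZNF529 was called higher (0.32), while ZNF382, 459 bases away and the human form of a rat kidney repressor, was not (0.05, SE 0.31). The last 2 pairs share exon bases in the table. A difference between the genes of a pair was not tested.

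The promoter of ZNF345 (GRCh38.p14, chr19:36850115-36850414, plus strand) is shown beside that of ZNF829 as a second divergent promoter of cluster 6 with a member called at least 2-fold higher. It holds none of the 6 motifs searched, so no base is in capitals:

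ZNF345: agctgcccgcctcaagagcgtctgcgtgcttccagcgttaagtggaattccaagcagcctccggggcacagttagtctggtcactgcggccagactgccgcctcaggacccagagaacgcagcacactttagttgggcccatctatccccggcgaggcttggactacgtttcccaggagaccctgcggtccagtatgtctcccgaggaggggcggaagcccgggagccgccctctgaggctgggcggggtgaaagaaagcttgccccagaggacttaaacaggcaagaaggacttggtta

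ZNF114, a scattered member with 3 fingers, had 2.17, 1.87 and 3.44 CPM in treated libraries, against 1.03, 0.726 and 0.650 CPM in Control libraries. The groups did not overlap, at counts of 38 to 73 reads in treated libraries and 12 to 18 in Control libraries. The log2 change was 1.63 (SE 0.32, edgeR adjusted p = 1.00e-05).

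ZNF667 encodes the human counterpart of rat Mipu1, a KRAB protein gene found in rat heart muscle after brief ischaemia. It had 4.87, 4.13 and 4.91 CPM in treated libraries, against 1.90, 1.81 and 1.19 CPM in Control libraries. Every treated library was above every Control library, and the log2 change was 1.51 (SE 0.22, edgeR adjusted p = 2.96e-08). An antisense gene, ZNF667-AS1, shares 1.54% of its exon bases, and reads there cannot be told apart without strand. The promoter of ZNF667 (GRCh38.p14, chr19:56477296-56477595, minus strand) is shown as the largest increase of cluster 9. It holds 42 CG dinucleotides, and its capitals mark the CCAAT box:

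ZNF667: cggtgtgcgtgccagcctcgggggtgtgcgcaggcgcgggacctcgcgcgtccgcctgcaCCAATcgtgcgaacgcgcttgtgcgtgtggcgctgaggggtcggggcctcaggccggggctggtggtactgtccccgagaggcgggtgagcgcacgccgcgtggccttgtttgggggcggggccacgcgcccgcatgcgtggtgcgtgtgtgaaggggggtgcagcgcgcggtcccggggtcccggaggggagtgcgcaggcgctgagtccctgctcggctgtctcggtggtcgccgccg

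The naming rule took called members of at least 1 CPM whose groups do not overlap. Under it, the remaining 5 of the 8 largest increases all lie in cluster 8. Called higher but outside the rule were ZNF563 of cluster 3 (log2 change 1.92), ZNF610 of cluster 8 (1.90), ZNF296 of cluster 7 (1.48) and ZNF471 of cluster 9 (1.23). ZNF600 had 5.73, 7.28 and 5.10 CPM in treated libraries, against 2.93, 2.18 and 1.62 CPM in Control libraries, with a log2 change of 1.43 (SE 0.20, edgeR adjusted p = 9.23e-09). Its groups did not overlap, and 18.5% of the 50-base stretches of its transcript occur in other genes, most of them in its neighbour ZNF611. ZNF525 had 3.57, 3.54 and 4.01 CPM in treated libraries, against 1.38, 1.15 and 1.68 CPM in Control libraries, with a log2 change of 1.39 (SE 0.25, edgeR adjusted p = 1.39e-06). The lowest treated library of ZNF525 was above the highest Control library. ZNF836, ZNF28 and ZNF761 followed with log2 changes of 1.20 (SE 0.30), 1.17 (SE 0.15) and 1.15 (SE 0.16), and in each the groups did not overlap.

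The promoter of ZNF525 (GRCh38.p14, chr19:53365455-53365754, plus strand) is shown as an example from cluster 8. Its capitals mark the ETS motif CCGGAAG close to the start of transcription:

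ZNF525: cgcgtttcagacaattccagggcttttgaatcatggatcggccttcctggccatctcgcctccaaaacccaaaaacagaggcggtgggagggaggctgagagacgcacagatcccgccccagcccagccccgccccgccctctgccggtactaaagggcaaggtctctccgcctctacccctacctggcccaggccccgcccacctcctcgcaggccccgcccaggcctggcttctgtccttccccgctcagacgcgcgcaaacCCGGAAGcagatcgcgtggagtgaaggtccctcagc

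**Figure D2:**
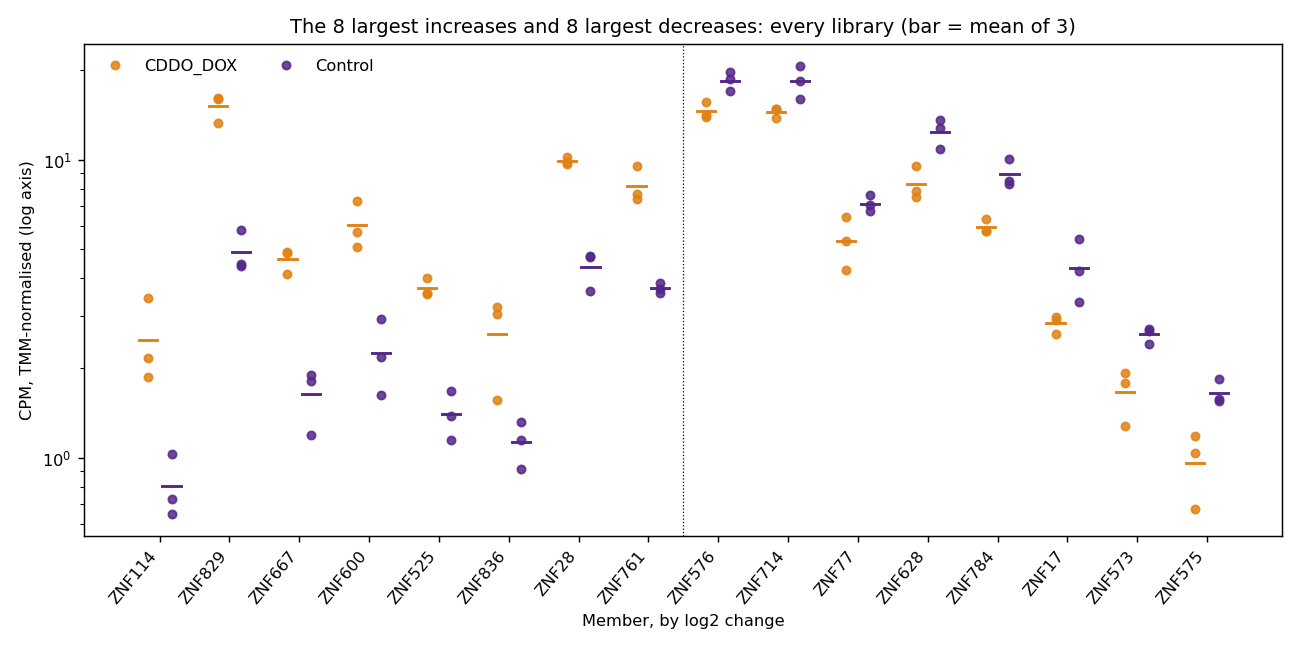
Level (TMM-normalised CPM, log axis) in each library of the 8 members that increased most and the 8 that decreased most, by the naming rule; orange points are CDDO_DOX, violet points Control, and bars the mean of 3. In all 16 members the 2 colours do not overlap, which the rule required; ZNF829 averages 15.1 CPM in treated and 4.89 CPM in Control libraries.

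Decreases were fewer and smaller, and 7 of the 13 members called lower lack a KRAB-like stretch. ZNF575 had 0.674, 1.18 and 1.04 CPM in treated libraries, against 1.55, 1.57 and 1.84 CPM in Control libraries. The groups did not overlap, but at this level the log2 change of -0.78 (SE 0.34, edgeR adjusted p = 0.0387) lost its call in 7 of 12 refits. ZNF573 had 1.78, 1.92 and 1.27 CPM in treated libraries, against 2.41, 2.66 and 2.71 CPM in Control libraries, with a log2 change of -0.65 (SE 0.26, edgeR adjusted p = 0.0266). Its call was lost in 5 of 12 refits.

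The decreases of ZNF784 and ZNF628 rested on more reads than those of ZNF575 and ZNF573, though ZNF714, ZNF576 and ZNF428 had more still. ZNF784 had 5.78, 5.76 and 6.32 CPM in treated libraries, against 8.50, 10.0 and 8.28 CPM in Control libraries, with a log2 change of -0.58 (SE 0.14, edgeR adjusted p = 0.00024). ZNF628, whose mouse counterpart is needed for sperm formation, had 7.52, 7.87 and 9.53 CPM in treated libraries, against 12.8, 13.6 and 10.9 CPM in Control libraries, with a log2 change of -0.58 (SE 0.12, edgeR adjusted p = 5.04e-05). Both lie at the start of cluster 9, both lack a KRAB-like stretch, and in both every treated library was below every Control library. Of the members between them, ZNF524 (0.74) and ZNF865 (0.28) were called higher and ZNF579 (0.06) was not called. ZNF17 (-0.62), ZNF77 (-0.41), ZNF714 (-0.34) and ZNF576 (-0.34) were also called lower. ZNF17 (-0.42) and ZNF714 (-0.25) lost their call without Control replicate 3, and ZNF77 without CDDO_DOX replicate 2 (-0.28) or Control replicate 2 (-0.37). The median of all genes moved by 0.13 when libraries were scaled by their totals alone. Under that scaling only 3 of the 13 members called lower kept the call. Among named members, ZNF573, ZNF575, ZNF576, ZNF77, ZNF714, ZNF428 and ZNF555 were not called.

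The promoters of the pair with the largest decreases are also shown. Both windows lie inside the span of their gene in the table. On its own strand that span starts at chr19:43525497 for ZNF575 and at chr19:37817300 for ZNF573. Of the promoters above, that of ZNF345 also holds none of the motifs, and that of ZNF667 also holds only the CCAAT box. The promoter of ZNF575 (GRCh38.p14, chr19:43532938-43533237, plus strand) holds none of the motifs, and that of ZNF573 (GRCh38.p14, chr19:37779537-37779836, minus strand) holds the CCAAT box in capitals:

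ZNF575: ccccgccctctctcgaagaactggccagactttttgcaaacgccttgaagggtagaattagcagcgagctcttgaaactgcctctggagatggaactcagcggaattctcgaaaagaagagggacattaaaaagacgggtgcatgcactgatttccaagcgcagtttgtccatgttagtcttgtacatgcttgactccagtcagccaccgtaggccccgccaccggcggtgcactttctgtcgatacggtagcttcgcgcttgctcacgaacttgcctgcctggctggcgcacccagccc

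ZNF573: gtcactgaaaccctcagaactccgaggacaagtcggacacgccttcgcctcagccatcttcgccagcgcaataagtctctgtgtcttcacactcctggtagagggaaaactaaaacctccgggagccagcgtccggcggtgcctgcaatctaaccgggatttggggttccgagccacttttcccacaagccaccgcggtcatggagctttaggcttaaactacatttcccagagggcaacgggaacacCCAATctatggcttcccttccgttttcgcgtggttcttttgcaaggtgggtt

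RefSeq promoters of GRCh38.p14, reaching from 250 bases before the start of transcription to 50 after it, were found for 215 members, in 263 windows. Over both strands the ETS motif CCGGAAG was in 39.9% of these windows and in 10.3% of 35116 promoters of all genes. The CCAAT box was in 49.0% of the members' windows, beside 34.6% of all promoters. The antioxidant response element core TGACNNNGC was in 14.8%, beside 13.3% of all promoters. The CRE letters TGACGTCA were in 3.04% and 1.85%, the NRF1 core GCGCATGC in 4.56% and 3.05%, and the E-box CACGTG in 4.56% and 7.26%. The members' windows held a median of 20 CG dinucleotides, beside 14 in all promoters. Close copies share promoter sequence, so that windows are not independent of each other.

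Among tested members with a window, the 95 that hold the ETS motif had 50 called higher and 2 lower, and their median log2 change was 0.38. The 102 without it had 40 called higher and 11 lower, with a median of 0.25. For the antioxidant response element core, the 33 with it had 17 higher and 2 lower (median 0.48), and the 164 without it 73 higher and 11 lower (median 0.31). For the CCAAT box there were 46 higher and 9 lower of 109 with it (median 0.33), and 44 higher and 4 lower of 88 without it (median 0.32). Each member was counted here by its first listed window only, unlike the shares of all windows above. A member counted as without a motif may hold it in another of its windows. These are descriptions of letters in a window, and the differences were not tested.

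The members with the highest level per length moved little. ZNF146 (OZF), a protein made of fingers alone, had the highest level, at 20.1 RPKM in treated and 21.2 RPKM in Control cells. In CPM it had 89.2, 81.2 and 79.1 in treated libraries, against 78.0, 90.2 and 95.5 in Control libraries, and the groups overlapped (log2 change -0.08, SE 0.06, edgeR adjusted p = 0.25). ZNF428 followed with 12.2 RPKM in treated and 15.1 RPKM in Control cells and was called lower (-0.31, SE 0.09), though 27.6% of its exon bases lie in exons of SRRM5. ZNF787 (11.1 RPKM in treated and 10.9 in Control cells) and ZNF580 (9.47 and 9.19 RPKM) were not called. ZNF358 was called higher by a small amount (10.7 RPKM in treated and 9.26 in Control cells, log2 change 0.20), and 7 of 12 refits did not call it. All 5 lack a KRAB-like stretch.

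A KRAB-like stretch, found as a pattern of residues of the A or B box in the translated GENCODE transcript, was present in 208 members, of which 187 were tested. Among these, 93 were called higher and 6 lower, and the median log2 change was 0.38. Among the 33 tested members without it, 11 were called higher and 7 lower, with a median of 0.06. The members without it were also expressed more highly, at a median of 16.4 CPM against 4.34 CPM. Among the 110 higher-expressed members the split was similar: 53 higher and 3 lower of 83 with the stretch (median 0.36), and 8 higher and 6 lower of 27 without it (median 0.04). A pattern can miss a diverged domain or one that only another transcript carries, and the difference between these sets was not tested.

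**Figure D3:**
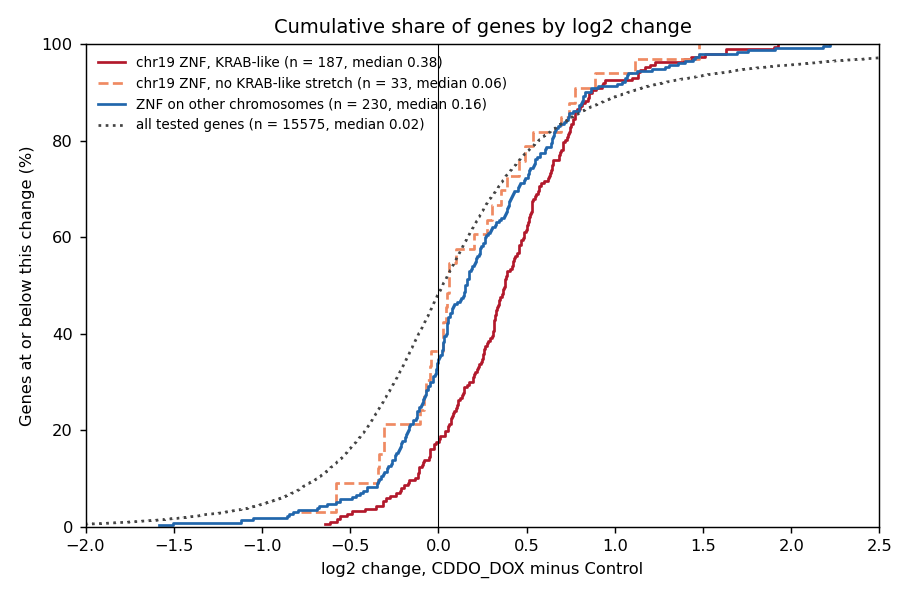
Cumulative share of genes (percent) by log2 change, CDDO_DOX minus Control, for chromosome 19 ZNF genes with (187) and without (33) a KRAB-like stretch, ZNF genes of other chromosomes (230) and all tested genes (15575); the axis leaves out the most extreme of all tested genes. The curve of members with the stretch lies to the right of the others through the middle of the range, with medians of 0.38, 0.06, 0.16 and 0.02 in the order given.

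The number of fingers did not track the change. Proteins of the members held a median of 12 C2H2 fingers and at most 36 (ZNF208, which was not tested), and ZNF738, with 137 residues in the transcript used, held 0. Across the 220 tested members the rank correlation of finger number with log2 change was 0.04, and that of exon length with log2 change was 0.10. These are correlations across genes, which are not independent replicates. Of 27 members with under 8 fingers, 12 were called higher and 5 lower; of 141 with 8 to 15, 70 and 5; and of 52 with over 15, 22 and 3. Strand made little difference, with 60 higher and 8 lower of 121 on the plus strand and 44 and 5 of 99 on the minus strand.

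Ordered by start position and split where the next member begins over 1 Mb further on, 235 members fell into 9 clusters of at least 5 genes and 11 were scattered. Cluster 8 at 51.6 to 53.6 Mb had the largest share of increases. Of its 37 tested members, 27 were called higher, 6 of them by at least 2-fold, and 0 lower; the median log2 change was 0.55. DESeq2 called 21 higher and 0 lower there, and leaving out a library in turn gave 20 to 27 higher and 0 lower. Of 2 other protein-coding genes tested within that span, 0 were called higher and 1 lower.

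The 37 tested genes of cluster 8 hold the longest run of adjacent tested members called higher, 8 in a row over chr19:52397849-52890375. In order these are ZNF528, ZNF808, ZNF701, ZNF83, ZNF611, ZNF600, ZNF28 and ZNF468, with log2 changes between 0.38 and 1.43. ZNF83, the one with the highest CPM, had 30.8, 31.5 and 36.1 CPM in treated libraries, against 15.3, 18.1 and 19.7 CPM in Control libraries (log2 change 0.89, SE 0.09, edgeR adjusted p = 1.85e-13). Its groups were far apart, and 0.235% of its 50-base stretches occur elsewhere. ZNF468 had 20.5, 18.2 and 17.5 CPM in treated libraries, against 9.59, 10.3 and 11.3 CPM in Control libraries, but 53.3% of its exon bases lie in exons of other genes. ZNF83 and ZNF468 were chosen after their values were seen.

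Among named members of cluster 8 with a described role, ZNF415, which represses p53 and AP-1 reporters in cell assays, had 2.70, 2.51 and 2.17 CPM in treated libraries, against 0.976, 1.15 and 1.68 CPM in Control libraries (log2 change 0.94, SE 0.28, edgeR adjusted p = 0.00279). Its groups did not overlap. ZNF350 (ZBRK1), a repressor of GADD45A that binds BRCA1, had 6.46, 3.30 and 5.28 CPM in treated libraries, against 3.39, 3.14 and 3.95 CPM in Control libraries. The groups overlapped, and its log2 change of 0.52 (SE 0.20, edgeR adjusted p = 0.0186) lost its call in 4 of 12 refits. ZNF649, a repressor of serum response element and AP-1 reporters, was higher in every treated library but was not called (0.31, SE 0.15, edgeR adjusted p = 0.0638). ZNF331, an imprinted gene, had 5.35, 4.58 and 7.17 CPM in treated libraries, against 4.77, 6.29 and 5.96 CPM in Control libraries, and was not called (0.01, SE 0.17).

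Cluster 7 at 43.5 to 45.1 Mb showed the least shift among clusters with over 10 tested members. Of 22 tested members, 4 were called higher and 3 lower, and the median log2 change was 0.05. The largest change there was the increase of ZNF296 (1.48), the only member of the cluster called at least 2-fold higher. ZNF296 was below 1 CPM on average. Among called members of the cluster with at least 1 CPM, the largest change was the decrease of ZNF575 (-0.78). The 3 called lower, ZNF575, ZNF576 and ZNF428, are the first 3 of the cluster by position and lack a KRAB-like stretch. Scaling by total counts gave 7 higher and 0 lower there, with a median of 0.18. Of 20 other protein-coding genes tested in that span, 8 were called higher and 8 lower. ZNF224, whose product represses the aldolase A gene and partners WT1, had 9.15, 10.5 and 8.45 CPM in treated libraries, against 8.10, 7.32 and 8.34 CPM in Control libraries. Its groups did not overlap, but it was not called (0.24, SE 0.13, edgeR adjusted p = 0.105), and 40.5% of its exon bases lie in exons of another gene.

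**Figure D4:**
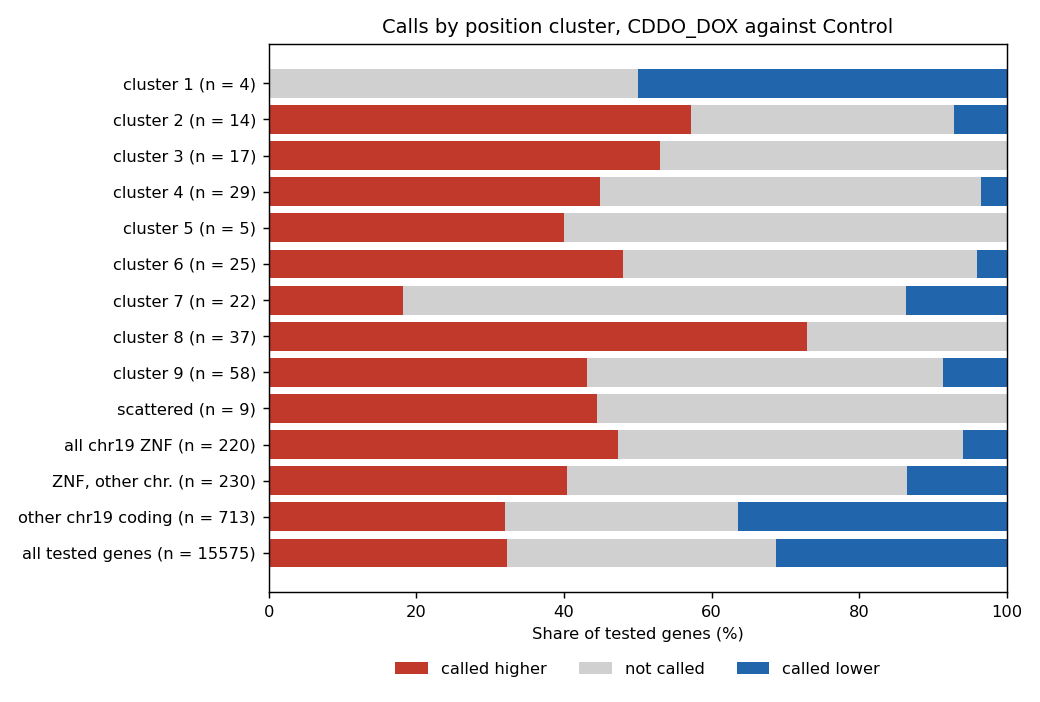
Share (percent) of tested genes called higher (red), not called (grey) and called lower (blue), CDDO_DOX against Control, in each position cluster, the scattered members, all members, and 3 sets of other genes, with the number tested in brackets. Cluster 8 has the longest red bar (27 of 37), cluster 1 none, and the members' blue bars are shorter than that of all tested genes except in cluster 1.

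The other clusters lay between these. Cluster 2 (7.1 to 9.8 Mb) had 8 higher and 1 lower of 14, cluster 3 (11.5 to 12.6 Mb) 9 and 0 of 17, and cluster 4 (19.7 to 24.1 Mb) 13 and 1 of 29. Cluster 5 (34.7 to 35.0 Mb) had 2 higher and 0 lower of 5, cluster 6 (36.2 to 37.8 Mb) 12 and 1 of 25, and cluster 9 (55.5 to 58.5 Mb) 25 and 5 of 58. Their medians were between 0.20 and 0.41 on the log2 scale. Cluster 1 (2.8 to 2.9 Mb) was the exception, with 0 higher and 2 lower of 4 and a median of -0.16. Its calls were ZNF77 and ZNF555, and ZNF555 lost its call in 9 of 12 refits. Differences between clusters were described and not tested.

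Among called members with a mean of at least 1 CPM, the one with the largest change was higher in treated cells in each of clusters 2 to 5. ZNF699 in cluster 2 had 7.56, 8.46 and 5.66 CPM in treated libraries, against 3.04, 5.02 and 3.36 CPM in Control libraries (log2 change 0.93, SE 0.18, edgeR adjusted p = 5.44e-06). ZNF441 in cluster 3 had 12.7, 10.5 and 10.5 CPM in treated libraries, against 7.01, 6.05 and 5.58 CPM in Control libraries (0.85, SE 0.13, edgeR adjusted p = 1.17e-07). In both the groups did not overlap. ZNF724 in cluster 4 was called higher (1.10, SE 0.22), but 56.1% of its 50-base stretches occur in other genes. ZNF181 in cluster 5 was called higher (0.64, SE 0.18, edgeR adjusted p = 0.00206).

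The changes of neighbours along the chromosome were weakly correlated. Over 202 pairs of adjacent tested members within a cluster, the rank correlation of their log2 changes was 0.24, and it was 0.24 over the 187 pairs that share no exon bases. Both were called higher in 55 pairs and both lower in 2, and in 7 the calls were opposite. Adjacent genes share libraries and, as tandem copies, sequence, so this is a description.

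Read assignment between close copies could not be checked from counts. Of the 246 members, 137 share some exon bases with another gene and 9 share more than 50%. A median of 3.84% of a member's 50-base transcript stretches occurs in transcripts of another gene, 75 members are above 10% and 12 above 50%. With those above 10% left out, 71 of 163 tested members were called higher and 9 lower, and their median log2 change was 0.31. Among the 57 tested members above 10%, the shift was larger, with 33 called higher, 4 lower and a median of 0.46. The difference between these sets was not tested. How reads with several positions were treated was not stated in any source available for this work, so values of such members are uncertain.

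Of the members that silence retrotransposons, ZNF93 was called higher and ZNF91 was not called. ZNF93, which silences LINE-1 elements, had 8.67, 7.92 and 8.64 CPM in treated libraries, against 5.97, 6.23 and 6.01 CPM in Control libraries (log2 change 0.47, SE 0.14, edgeR adjusted p = 0.0026). Its groups did not overlap. ZNF91, which silences SVA elements, had 3.08, 2.21 and 3.44 CPM in treated libraries, against 3.27, 2.96 and 2.82 CPM in Control libraries, and was not called (-0.05, SE 0.22). The difference between ZNF93 and ZNF91 was not tested. ZNF274, which binds the ends of other ZNF genes and recruits SETDB1 there, had 43.5, 41.0 and 38.3 CPM in treated libraries, against 29.8, 32.2 and 32.6 CPM in Control libraries (0.38, SE 0.07, edgeR adjusted p = 1.08e-05). All treated libraries of ZNF274 were above all Control libraries.

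Members tied to p53 and other signals were mixed. ZNF420 (Apak), which holds p53 in check in unstressed cells, had 6.12, 4.97 and 6.18 CPM in treated libraries, against 2.81, 3.57 and 3.79 CPM in Control libraries (log2 change 0.76, SE 0.18, edgeR adjusted p = 0.000203). Its groups did not overlap. ZNF473 (ZFP100), a subunit of the machinery that processes histone messages, had 34.6, 33.1 and 34.5 CPM in treated libraries, against 25.0, 26.6 and 26.5 CPM in Control libraries (0.39, SE 0.08, edgeR adjusted p = 1.52e-05). ZNF675 (TIZ), an inhibitor of TRAF6 signalling, was called higher (0.38, SE 0.12, edgeR adjusted p = 0.0053). ZNF71, induced by TNF in endothelial cells, was not called (0.11, SE 0.13). Of the 15 members on the list of known roles, which does not hold ZNF628 or ZNF667, 8 were called higher and 0 lower.

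Some of the lowest members had the largest fitted changes. These were chosen after their values were seen and were below 1 CPM on average. ZNF563 had 17, 25 and 22 reads in treated libraries, against 3, 3 and 8 reads in Control libraries (log2 change 1.92, SE 0.48, edgeR adjusted p = 0.000406). ZNF610 had 18, 14 and 27 reads in treated libraries, against 6, 3 and 4 reads in Control libraries (1.90, SE 0.49, edgeR adjusted p = 0.00065). In both the groups did not overlap, but the fitted size rests on few Control reads. Both lay below the filter of about 0.511 CPM in every Control library and were tested only through the treated libraries. Their p-values and the gap between groups are therefore not separate support for an increase.

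The 26 members left untested had few reads or none. The largest total over the 6 libraries was 51 counts, and 5 members were at 0 in every library. Of the 26, 8 lie in cluster 4 (ZNF66, ZNF208, ZNF676, ZNF729, ZNF98, ZNF99, ZNF723 and ZNF728). Tested members, such as ZNF714, lie between them.

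The genes through which KRAB proteins act were mostly lower in treated cells. Of 34 genes of the co-repressor machinery in the table, 33 were tested, 21 were called lower, 2 higher and 10 were not called. The shares were 63.6% lower and 6.06% higher, beside 31.2% and 32.3% of all tested genes. The list had a median level of 121 CPM, beside 21.9 CPM for all tested genes, and a higher level lets smaller changes be called. It was not set beside genes of a like level. The median log2 change was -0.23. TRIM28, the scaffold that binds KRAB domains, lies at chr19:58544091-58550722, just beyond the last member of cluster 9. It had 605, 577 and 576 CPM in treated libraries, against 734, 669 and 658 CPM in Control libraries (log2 change -0.23, SE 0.05, edgeR adjusted p = 1.66e-05). Its groups did not overlap. SETDB1, which writes H3K9 trimethylation, had 31.8, 33.1 and 30.1 CPM in treated libraries, against 36.4, 36.2 and 35.5 CPM in Control libraries (-0.19, SE 0.07, edgeR adjusted p = 0.0253), and 4 of 12 refits did not call it.

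The largest changes of that list were decreases of UHRF1, CBX1 and CHD4. UHRF1, which guides DNA methylation to new DNA strands, averaged 177 ± 4.89 CPM in treated and 301 ± 2.31 CPM in Control libraries (SD, n = 3 each, log2 change -0.77). CBX1, which encodes an HP1 protein, averaged 151 ± 5.04 CPM in treated and 246 ± 8.77 CPM in Control libraries (-0.70). CHD4, the NuRD remodeller, averaged 218 ± 7.53 CPM in treated and 345 ± 14.1 CPM in Control libraries (-0.66). The 2 called higher were MPHOSPH8 (0.33), of the HUSH silencing complex, and MTA2 (0.28), of NuRD. Scaling by total counts left 15 lower and 5 higher, with a median of -0.10.

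**Figure D5:**
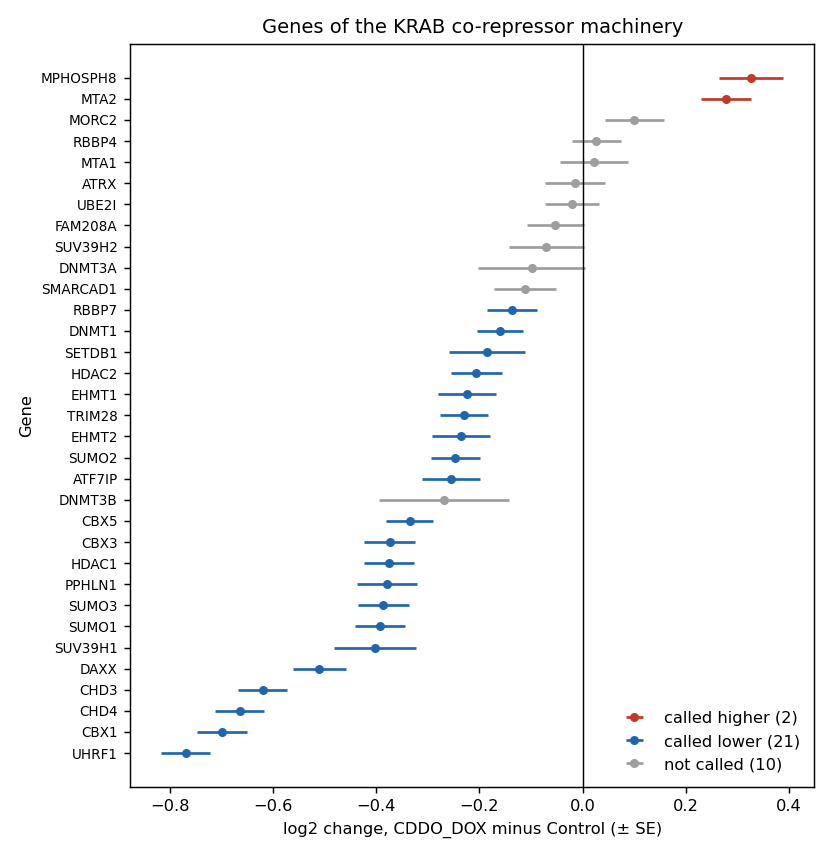
Log2 change (CDDO_DOX minus Control, with standard error) of the 33 tested genes of the KRAB co-repressor machinery, largest increase at the top; blue points were called lower (21), red higher (2) and grey not called (10). MPHOSPH8 and MTA2 stand at the top and UHRF1 (-0.77) at the bottom.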

How the data were processed

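RNA was sequenced from 3 CDDO_DOX and 3 Control libraries of AC16 cells, grouped by the treatment label. The authors deposited whole-number counts per Ensembl gene, with exon coordinates and lengths, per the file headers. The build named in the submitters' processing notes is GRCh38 (hg38), and the tools named are STAR, SAMtools and featureCounts of Subread. Versions, annotation release and counting options are not given in the sources used here. Libraries were unstranded and poly(A)-selected, per the labels' protocols.

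Symbols came from GENCODE v29, which holds 58179 of the 58299 identifiers. The members and lists were chosen with earlier results of these data known, so no p-value was adjusted over a list or given for one. The filter on low counts was filterByExpr by group with a minimum of 10 counts, and 15575 genes passed it. After TMM scaling, a single edgeR 4.0.16 quasi-likelihood fit in R 4.3.3 compared the groups over these genes. A gene was called at a Benjamini-Hochberg adjusted p below 0.05. The script was tested on simulated data. CPM values use TMM libraries, and RPKM values also the table's exon length. Replicates differed by more than sampling noise (chi-square per degree of freedom 3.00 to 4.01).

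Position clusters, exon overlap, fingers (spacing of paired cysteines and histidines), KRAB-like stretches (patterns of the A and B box) and 50-base stretches shared with other transcripts of GENCODE v29 were computed with Python 3.11.15. Promoters came from RefSeq (GRCh38.p14). Named members were, by rule, the 8 largest increases and 8 largest decreases among called members of at least 1 CPM whose groups do not overlap, the 5 highest by RPKM, the largest change of each cluster among called members of at least 1 CPM, and a list of 15 with known roles. Alternatives were RLE and total-count scaling, DESeq2 1.42.0, a replicate block, no filter, a filter of 1 CPM in 3 libraries, each library left out, and gaps of 0.5 or 2 Mb. The restrictions to members of at least 1 CPM or with at most 10% shared stretches, and the addition of HKR1 (now ZNF875), were chosen after seeing the data.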

Additional observations from a re-analysis of the deposited data

How the results depend on the processing

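The direction of the members' shift held in all 12 refits: 85 to 129 members were called higher and 3 to 13 lower, and their median log2 change was 0.32 to 0.47. Scaling by total counts gave 129 higher and 3 lower among members and 19 lower among ZNF genes of other chromosomes, with a member median of 0.47; it moved the median of all genes by 0.13. DESeq2 gave 88 higher and 8 lower. Leaving out each library in turn gave 85 to 99 higher, 7 to 13 lower and medians of 0.32 to 0.38; Control replicates 2 and 3 gave the fewest lower calls (8 and 7). Of the called members, 64 of the 104 higher and 2 of the 13 lower kept their call in all 12 refits.

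Cluster counts depend on the gap. With 2 Mb, clusters 2 and 3 merge (17 higher, 1 lower), cluster 5 joins cluster 6 (14 and 1), and clusters 8 and 9 merge (54 and 5). With 0.5 Mb, cluster 9 splits into a stretch at 55.5 to 56.7 Mb (4 higher and 2 lower of 15, median 0.06) and another at 57.2 to 58.5 Mb (21 higher and 3 lower of 43, median 0.38).

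No pairing by replicate number was seen: deviations of same-numbered libraries correlated at -0.0225, -0.00714 and -0.00718. With 3 libraries a group, this check cannot exclude that same-numbered libraries were handled together. With the replicate number as a block, 101 members were called higher and 11 lower. Of 540 values of named genes under alternatives, 479 kept their direction and their side of the threshold, 46 lost the call, 3 gained it and 12 changed sign. The 12 are of 6 members, uncalled both in the reported fit and under the alternative that changed the sign. Total counts gave 0.0473 for ZNF146 and 0.0815 for ZNF91, and no filter gave -0.0087 for ZNF331. With each library left out in turn, ZNF91 ranged from -0.19 to 0.11, ZNF382 from -0.15 to 0.40, ZNF331 from -0.19 to 0.14, ZNF787 from -0.017 to 0.093 and ZNF71 from -0.008 to 0.17. With 3 libraries a group and a median level of 5.38 CPM, small changes of the lowest members were not detectable at this depth.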

Other observations

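Pseudogenes and antisense genes named after ZNF genes of chromosome 19 were measured beside the members. Of 15 such pseudogenes, 6 were tested, 2 were called higher and 0 lower, and their median log2 change was 0.08. Of 15 antisense genes, 8 were tested, 2 were called higher and 0 lower, with a median of 0.15. HKR1, a KRAB gene of cluster 6 that now carries the symbol ZNF875 and was not a member by the symbol in the table's annotation, was not called (log2 change 0.19, SE 0.12, edgeR adjusted p = 0.144).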
